A study of Mus musculus with 14 samples.

Results

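Chemokine genes were followed across mouse bone marrow progenitors that had been grown as clones and sorted by what they can become. They were taken by symbol, as every gene named Ccl, Cxcl or Cx3cl1 with a number, with the marrow niche factor Cxcl12 and also Cxcl10 left out. The rule found 27 of the 23331 genes in the deposited table, under 26 symbols, since Ccl25 is listed under 2 gene IDs. Chemokines are small secreted proteins that bind G-protein-coupled receptors on leukocytes and direct their movement. The CC family, with symbols in Ccl, mainly draws monocytes, macrophages and lymphocytes, while CXC members with an ELR motif draw neutrophils. Marrow stromal cells are known to make several of them, Ccl2 above all, when they sense microbial products or inflammatory cytokines, and many chemokine promoters carry binding sites for the transcription factor NF-κB.

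The cells were marrow stromal cells of adult C57Bl/6 mice transgenic for irtTA-GBD*-TAg, a large T antigen switched on by dexamethasone and doxycycline. All clones were expanded with the inducers, assayed for the osteogenic (O), adipogenic (A) or chondrogenic (C) fate, and cultured for 3 days without the inducers before RNA was taken. The table holds 14 libraries. Tripotent clones (OAC), bipotent osteo-adipogenic clones (OA), osteogenic clones (O) and adipogenic clones (A) have 3 libraries each, and the bipotent osteo-chondrogenic (OC3) and adipo-chondrogenic (AC3) clones have 1 each. In a group, the libraries numbered 1 and 2 are each 1 clone, taken from separate mice, and the library numbered 3 pools further clones of the same 2 animals. A single clone stands for 1 founder cell, so a p-value here reflects how much clones and pools vary. It is not stated whether number 1 marks the same mouse in every group.

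Total counts were 16888190 to 26076539 per library, and levels are given as CPM, the counts of a gene divided by the scaled library size. The stromal markers had a summed level of 17863 CPM in A2 to 88269 CPM in O1 over 10 genes. Most of it came from Col1a1 and Col1a2, with 55512 and 27602 CPM in O1. Thy1, a common stromal surface marker, had 3 reads in all, and Lepr averaged 0.967 CPM with no read in O1. Ptprc, which marks all leukocytes, had 2 reads in all, and the 13 myeloid markers summed to 7.89 to 65.6 CPM, with the highest sum in O1. The deviation of a library from the mean followed the GC content of genes with a Spearman rho, across genes, of 0.65 in OA2 and 0.51 in O1 and of -0.53 in OAC3, OC3 and AC3. Among 1440 genes with a GC content like that of the chemokine genes, the median log2 deviation was -0.59 in OA2 and -0.42 in O1, and -0.08 to 0.26 in the other libraries.

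All 27 genes had at least 1 read, and 12 reached 1 CPM in at least 3 libraries and were tested. Chemokine symbols with no row in the deposited table, such as Ccl12, Ccl22 and Cxcl13, are outside this count. No gene of the marker, pathway and receptor lists found in the table lacked reads either. Of these, 7 averaged at least 5 CPM over the 14 libraries: Ccl2, Ccl7, Ccl9, Ccl5, Cxcl1, Cxcl16 and Cx3cl1. Per kilobase of exon, the mean level over the 14 libraries was 48.1 CPM per kb for Cxcl1, 35.9 for Ccl7, 28.4 for Ccl2, 20.8 for Cx3cl1, 18.4 for Ccl5, 5.21 for Ccl9 and 2.36 for Cxcl16. The order of the medians was different, with Ccl7 first at 24.2 CPM per kb and Cxcl1 at 14.2, because a single library held 59.8% of all Cxcl1 reads. The 27 genes together took 39.5 CPM in O2 to 865 CPM in O1, and both extremes were single osteogenic clones. The adipogenic libraries summed to 339 ± 170 CPM (SD, n = 3), the tripotent ones to 174 ± 106 and the osteo-adipogenic ones to 128 ± 54.1. The osteogenic libraries summed to 368 ± 438 CPM (SD, n = 3). O2 had the lowest level of 7 of the 12 tested genes, and A2 the highest level of 4.

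**Figure D1:**
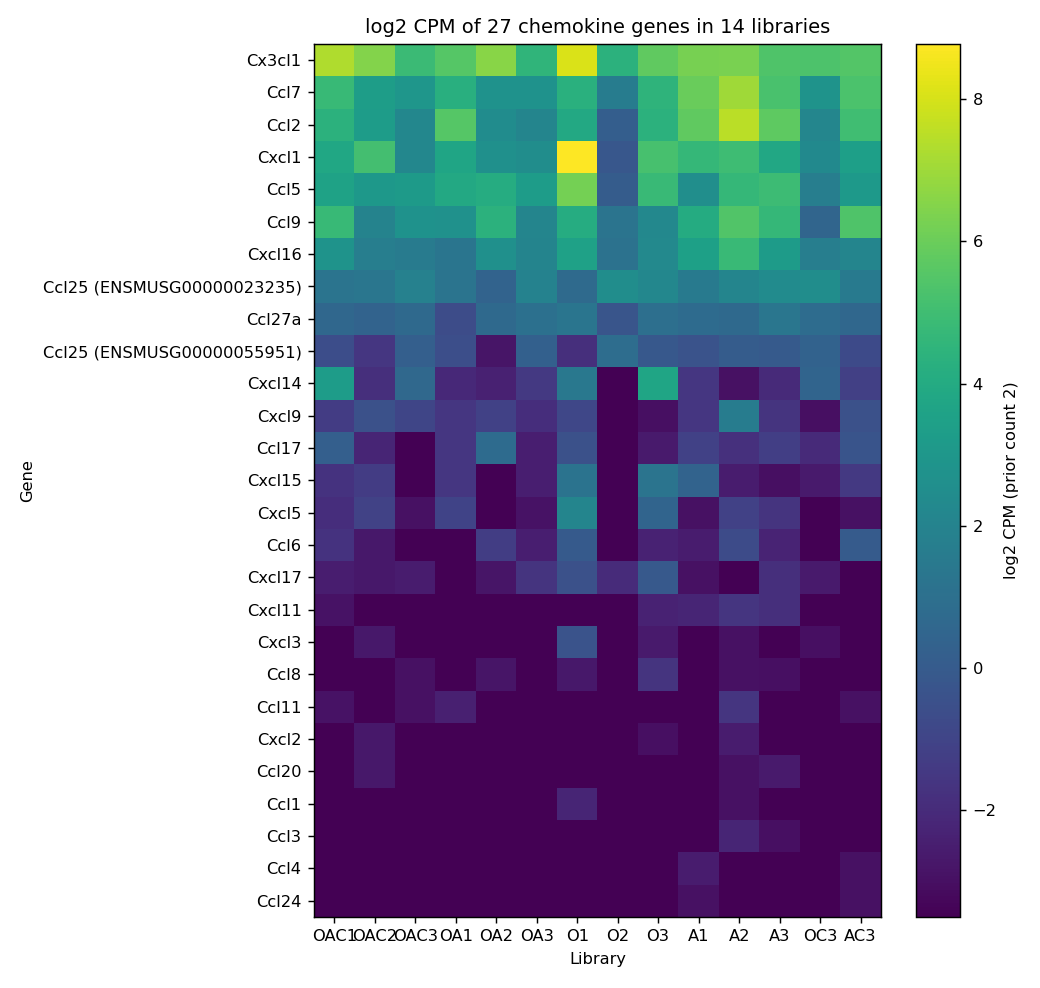
log2 CPM (colour, prior count 2) of the 27 chemokine genes (rows, ordered by mean level) in the 14 libraries (columns). Cx3cl1 is at 21.1 CPM or more in every library, and Cxcl1 has its brightest cell in O1 at 440 CPM. The 15 untested genes reach at most 4.20 CPM.

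The monocyte attractants Ccl2 and Ccl7 were at their highest in the adipogenic libraries. Ccl2, also called MCP-1, is the main ligand of the receptor CCR2 and releases monocytes from the marrow. Its level was 55.0 CPM in A1, 182 CPM in A2 and 52.2 CPM in A3. The osteogenic libraries O1 to O3 had 14.7, 1.01 and 20.8 CPM, and OA1 to OA3 had 46.8, 5.46 and 4.21 CPM. Among the tripotent libraries it was 20.6 CPM in OAC1, 9.80 CPM in OAC2 and 4.42 CPM in OAC3. No library of these 3 groups reached the lowest adipogenic one, and OA1 came nearest. Fewer expressing cells and less RNA per cell cannot be told apart in bulk RNA. The pools without replicates went the same way by value, with 31.8 CPM in AC3 and 4.28 CPM in OC3. The adipogenic mean was 96.3 ± 73.9 CPM and the tripotent mean 11.6 ± 8.26 CPM (SD, n = 3 each). The log2 fold change of Ccl2 in OAC over A was -3.05 ± 1.21 (SE), with a 95% interval of -5.74 to -0.36, and it was -3.76 without OAC1 and -2.21 without A2. It did not pass the correction over all genes in edgeR (FDR = 1.00), although each of the 3 tripotent libraries lay below each adipogenic one.

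Ccl7, or MCP-3, is a neighbour of Ccl2 on chromosome 11 and binds CCR2 and other receptors on monocytes. It stood at 63.0, 132 and 38.5 CPM in A1, A2 and A3. It stood at 27.7, 9.99 and 7.65 CPM in OAC1, OAC2 and OAC3, and the osteogenic libraries O1 to O3 had 19.7, 3.04 and 22.4 CPM. The osteo-adipogenic libraries were the most alike, at 19.1 CPM in OA1, 6.69 CPM in OA2 and 6.72 CPM in OA3. Every adipogenic library lay above every library of the 3 other groups, while AC3 at 39.0 CPM lay inside the adipogenic range and OC3 at 6.97 CPM below it. The mean was 78.0 ± 48.7 CPM in A and 10.8 ± 7.17 CPM in OA (SD, n = 3 each). In OA over A the log2 fold change was -2.85 ± 0.84 (SE), with a 95% interval of -4.70 to -0.99, and it was -3.54 without OA1. edgeR did not call it (FDR = 0.676, and 0.539 to 1.00 with each library left out), and DESeq2, the second test, called it lower at -2.83 (padj = 0.0333). The DESeq2 call was lost when OA2, OA3, A1 or A2 was left out, with padj = 0.157, 0.129, 0.116 and 0.437. Without A2, the library with the highest level, the DESeq2 value was -2.20.

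GC content touches both genes, since Ccl2 lies at percentile 12.3 and Ccl7 at percentile 9.08 of GC content among the genes tested, on the side where OA2 and O1 read low. After an offset for GC content in each library, Ccl2 was at 16.9 CPM in OA2 and 30.3 CPM in O1, and A3, the lowest adipogenic library, was at 46.1 CPM. The adipogenic libraries stayed above the others for Ccl2 after this offset, with 45.1 CPM in OA1 as the nearest value. For Ccl7 they did not, since O1 came to 46.7 CPM and A3 to 33.0 CPM, and AC3, at 23.2 CPM, then lay below the adipogenic range. With these offsets the log2 fold change was -2.74 for Ccl2 in OAC over A and -2.12 for Ccl7 in OA over A.

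**Figure D2:**
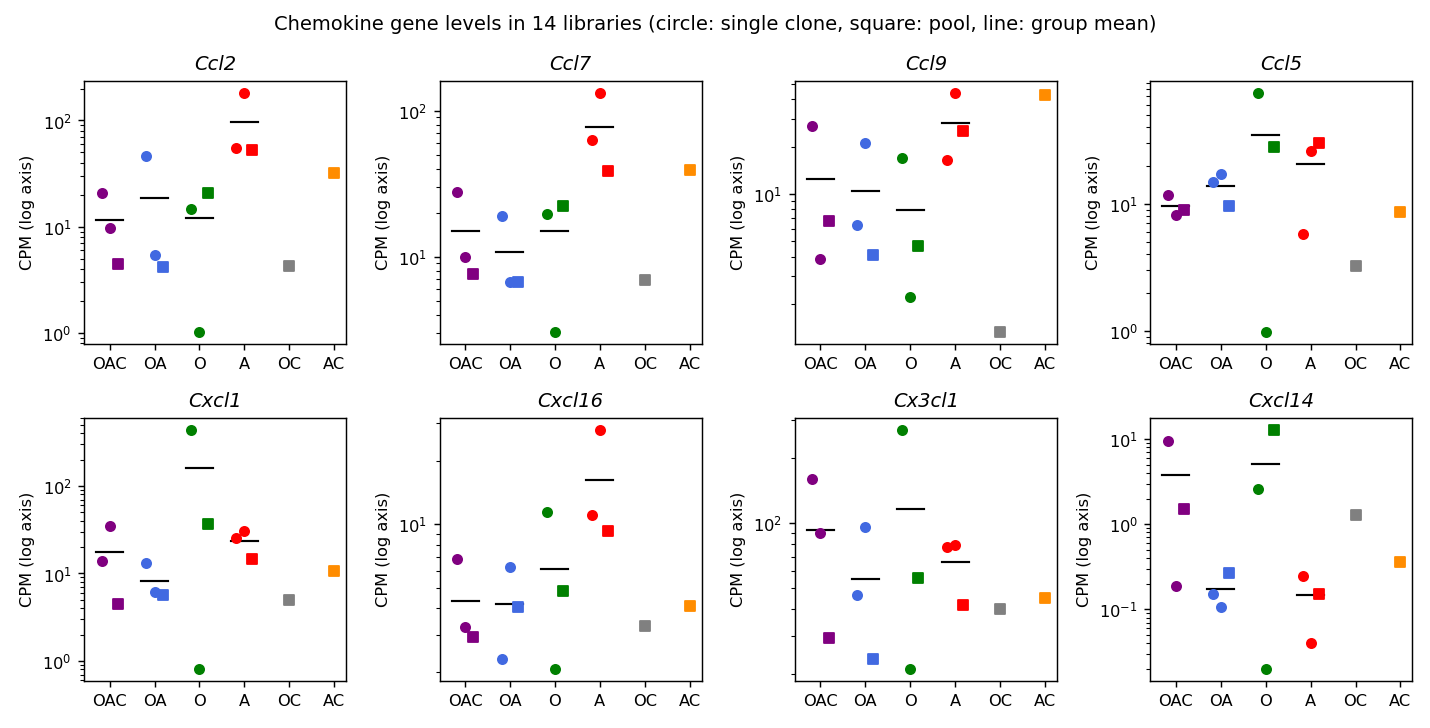
CPM on log axes of 8 chemokine genes, with 1 point per library (circle, single clone; square, pool) and a line at the mean of each group with 3 libraries. Adipogenic points for Ccl2 and Ccl7 lie above all OAC, OA and O points, the O1 point for Cxcl1 stands at 440 CPM, and the O2 point for Cxcl14, which had no read, is drawn at the bottom of its axis.

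Ccl2 and Ccl7 moved together from library to library. Over the 14 libraries the Pearson r of their log2 CPM was 0.96 (permutation p = 1e-05, the smallest the resampling can give, adjusted p = 0.00021 over 21 pairs of the 7 most abundant genes) and Spearman's rho was 0.92 (permutation p = 5e-05, adjusted p = 0.00105). Without O2 and A2, the libraries farthest from the Ccl2 median, r was 0.93 (permutation, adjusted p = 0.00063). Within the 8 single clones r was 0.95 (permutation, adjusted p = 0.0128), and within the 6 pools it was 0.99 (exact permutation p = 0.00972, adjusted p = 0.204). The ratio of Ccl2 to Ccl7 CPM ranged from 0.333 in O2 to 2.45 in OA1, with a median of 0.816. OA1 was thus the library in which Ccl2 was high without a like level of Ccl7. Clones and pools come from 2 mice, per the series' text, so the points share their animals.

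Of the 21 pairs, 16 had an adjusted permutation p under 0.05 by Pearson's r over 14 libraries, and all 21 coefficients were positive. The share of other gene pairs that would pass was not computed, so this count does not set chemokine genes apart. The permutations also ignored the groups and the GC trends of the libraries, which genes can share. Without the pair of libraries farthest from the first gene's median, Ccl2 with Ccl7 was the 1 pair left. Cx3cl1 and Cxcl1, for example, had r = 0.79 over all libraries (permutation p = 0.00055, adjusted p = 0.00577), Spearman's rho = 0.73 (permutation p = 0.00456, adjusted p = 0.0338), and r = 0.73 without OAC1 and O1 (permutation, adjusted p = 0.0629). Ccl5 and Cxcl1 had r = 0.80 (permutation p = 0.00154, adjusted p = 0.00808) and rho = 0.59 (permutation p = 0.0300, adjusted p = 0.0484), and r = 0.41 without O1 and O2 (permutation, adjusted p = 0.327). Over the 14 libraries the relation of Ccl5 with Cxcl1 thus did not pass without O1 and O2. Within the 6 pools, which hold neither, r was 0.79 (exact permutation p = 0.0819, adjusted p = 0.215), and without OA2 and O1 it was 0.76 (permutation, adjusted p = 0.0133).

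**Figure D3:**
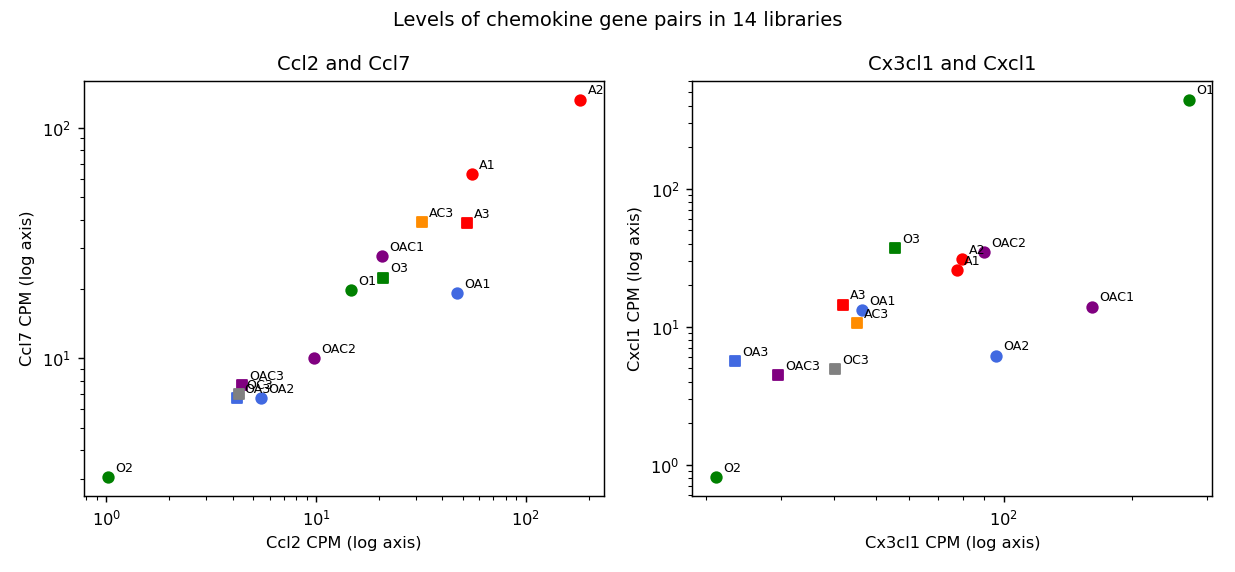
Levels of Ccl2 against Ccl7 (left) and Cx3cl1 against Cxcl1 (right) in CPM on log axes, with 1 labelled point per library coloured by group. Ccl2 and Ccl7 line up from O2 to A2, with OA1 to the right of the others, and O1 stands alone at the top of the right panel.

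Ccl8, also a monocyte attractant of this chromosome 11 cluster, had 11 reads in all, and the eosinophil attractants Ccl11 and Ccl24 had 11 and 2. Ccl11 is the gene next to Ccl7 in the RefSeq order and was thus close to unread beside an abundant neighbour, with 6 of its 11 reads in A2.

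Ccl9 and Ccl5 lie in a second run of neighbours on chromosome 11, with Ccl6, Ccl3 and Ccl4. Ccl9, a ligand of CCR1 that draws myeloid cells and osteoclast precursors, was at 16.3, 43.9 and 25.1 CPM in A1, A2 and A3. The osteogenic libraries O1 to O3 had 16.9, 2.23 and 4.65 CPM, and OAC1 to OAC3 had 27.0, 3.89 and 6.71 CPM. The osteo-adipogenic libraries held 6.41, 21.0 and 4.12 CPM in OA1, OA2 and OA3. Each of these 3 groups had 1 clone inside the adipogenic range, so the groups overlapped. Of the pools without replicates, AC3 had 42.6 CPM, close to A2, and OC3 had 1.33 CPM, the lowest level of all. Ccl9 lies at percentile 12.2 of GC content, and after the GC offset OA2 came to 65.7 CPM and O1 to 34.9 CPM, beside 39.7 CPM in A2. In O over A, the comparison with the lowest p for Ccl9, the log2 fold change was -1.85 ± 0.95 (SE) with a 95% interval of -3.95 to 0.25 (edgeR, FDR = 0.583, and 0.514 to 0.995 with each library left out). DESeq2 did not call it over all libraries (-1.77, padj = 0.379). Without O1 the fold change of Ccl9 was -3.04 and DESeq2 called it (padj = 0.0446), but it did so with no other library left out.

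Ccl5, or RANTES, which draws T cells and monocytes, did not follow the adipogenic label. It reached 74.5 CPM in O1 and 28.1 CPM in O3 but 0.973 CPM in O2. It was 5.75, 25.8 and 29.9 CPM in A1, A2 and A3, and 14.8, 17.1 and 9.68 CPM in OA1, OA2 and OA3. The tripotent libraries were close to each other, at 11.8 CPM in OAC1, 8.17 CPM in OAC2 and 8.96 CPM in OAC3, and the pools OC3 and AC3 had 3.22 and 8.64 CPM. The osteogenic group alone covered the whole range of the 14 libraries. The log2 fold change of Ccl5 in OAC over O was -1.84 ± 1.05 (SE; edgeR, FDR = 0.886, and 0.668 to 1.00 with each library left out). DESeq2 did not call it over all libraries (-1.86, padj = 0.606). With single libraries left out, DESeq2 called it only without O2, at -2.43 (padj = 0.0442). Without O1 it was -0.59 in edgeR and -0.55 in DESeq2 (padj = 0.892). Ccl6 had 72 reads, 23 of them in AC3 and 14 in O1, while Ccl3 and Ccl4, typical of activated macrophages, had 4 and 3 reads in all.

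The neutrophil attractants are a cluster on chromosome 5, where Cxcl3, Cxcl15, Cxcl1 and Cxcl2 follow one another in the RefSeq order. Cxcl1, also called KC, is the main murine ligand of CXCR2 made by stromal cells, and Cxcl2 and Cxcl3 are its close relatives. Their promoters are shown because these 3 genes share a sequence there while their levels were far apart. Each sequence runs from 250 bases before to 50 bases after the RefSeq start in build GRCm38.p6, on the plus strand of chromosome 5, and capitals mark matches to the κB consensus on either strand, overlapping matches joined.
Cxcl1, chr5:90890995-90891294: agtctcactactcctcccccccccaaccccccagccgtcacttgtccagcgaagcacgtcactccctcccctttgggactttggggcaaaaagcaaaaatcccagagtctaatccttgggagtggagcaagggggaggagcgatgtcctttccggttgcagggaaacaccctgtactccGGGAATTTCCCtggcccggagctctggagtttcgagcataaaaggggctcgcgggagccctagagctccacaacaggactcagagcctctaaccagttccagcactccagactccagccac
Cxcl2, chr5:90903649-90903948: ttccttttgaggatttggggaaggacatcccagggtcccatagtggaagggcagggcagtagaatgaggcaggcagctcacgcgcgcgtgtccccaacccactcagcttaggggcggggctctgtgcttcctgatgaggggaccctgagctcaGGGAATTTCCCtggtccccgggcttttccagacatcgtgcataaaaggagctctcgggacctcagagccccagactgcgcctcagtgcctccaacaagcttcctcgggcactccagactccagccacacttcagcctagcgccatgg
Cxcl3, chr5:90785851-90786150: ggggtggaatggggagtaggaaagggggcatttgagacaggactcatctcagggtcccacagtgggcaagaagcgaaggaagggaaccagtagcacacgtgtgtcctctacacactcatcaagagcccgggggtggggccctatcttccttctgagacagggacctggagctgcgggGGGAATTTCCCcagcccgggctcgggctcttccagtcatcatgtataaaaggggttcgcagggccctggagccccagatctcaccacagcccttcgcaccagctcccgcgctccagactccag

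The motif GGGAATTTCC was taken from the first κB match in the Cxcl1 promoter, so its presence in Cxcl1 was fixed by that choice. Searched on both strands, it occurs in these 3 promoters of the 16 chemokine symbols matched to a RefSeq promoter. It occurs in 0.0883% of all 32851 promoters of this length. The 16 symbols do not include Ccl2, Ccl7, Ccl5 and Cxcl16. The motif overlaps the κB consensus, which begins at -71 from the start in Cxcl1, -97 in Cxcl2 and -73 in Cxcl3. The κB consensus was in 7 of the 16 genes and in 8.46% of all promoters, and TATAAA was in 7 of the 16 genes and in 13.6% of all promoters. A match is a description of letters and not a measured site.

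Cxcl1 reads totalled 11565, Cxcl3 reads 16 and Cxcl2 reads 4. Cxcl1 was at 440 CPM in O1, 0.811 CPM in O2 and 37.0 CPM in O3. The adipogenic libraries held 25.6, 30.7 and 14.4 CPM in A1, A2 and A3, and the osteo-adipogenic ones 13.1, 6.16 and 5.64 CPM in OA1, OA2 and OA3. The tripotent ones held 13.97, 34.5 and 4.46 CPM in OAC1, OAC2 and OAC3, and OC3 and AC3 had 4.92 and 10.6 CPM. O1 was 11.9-fold above the next library, which was O3, and 543-fold above O2, the lowest library, so osteogenic clones took the first and the last place. Each osteo-adipogenic library lay below each adipogenic one as measured, but not after the GC offset, which gave 14.9 CPM in OA2 and 13.1 CPM in A3. The mean was 159 ± 244 CPM in O and 8.31 ± 4.17 CPM in OA (SD, n = 3 each), with overlap through O2. For Cxcl1 in OA over O the log2 fold change was -4.26 ± 1.57 (SE), with a 95% interval of -7.73 to -0.78. Neither edgeR (FDR = 0.858, and 0.544 to 1.00 with each library left out) nor DESeq2 (padj = 0.0817) called it. Without O1 it was -1.19. Without O2 and without O3 in turn DESeq2 called it, at -4.92 (padj = 0.000646) and -4.81 (padj = 0.0469).

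Cxcl1 is a gene of low GC content (percentile 17.2), and its level in O1 was 781 CPM after the GC offset. Cxcl5, another CXCR2 ligand, was likewise at its highest in O1, with 66 of its 137 reads and 4.20 CPM there, and 34 reads in O3. Cxcl3 had 11 of its 16 reads in O1. Cxcl15, known from lung epithelium and counted among the 12 tested genes, was at 2.16 CPM in O1, 2.25 CPM in O3 and 1.23 CPM in A1, and at 0.314 CPM or less in the other libraries, O2 with no read. Its log2 fold change in OA over O was -3.62 ± 1.83 (SE; edgeR, FDR = 0.925), and -4.80 without OA1. The myeloid marker Lyz2 was also highest in O1 (37.2 CPM) and next in O3 (8.36 CPM), and so was Ppbp (13.9 and 4.27 CPM), a platelet CXC chemokine outside the symbol rule. Of the other 3 myeloid markers tested, Cd14 was highest in O1 (16.3 CPM), Cd68 in A1 (13.8 CPM, and 7.25 CPM in O1) and Csf1r in OA1 (4.96 CPM, and 4.07 CPM in O1). Ptprc had no read in O1, and the part of such cells in the O1 levels was not tested.

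Cxcl14, an epithelial and stromal chemokine that acts on monocytes and dendritic cells, was read mainly in a few libraries of several groups. It was at 12.9 CPM in O3, 9.57 CPM in OAC1, 2.61 CPM in O1, 1.50 CPM in OAC3 and 1.29 CPM in OC3. It was at 0.0405 to 0.246 CPM in the adipogenic libraries, with 11 reads over the 3, and at 0.107 to 0.269 CPM in the osteo-adipogenic ones, and O2 had no read. Osteogenic and adipogenic libraries overlapped through O2. In O over A its log2 fold change was 5.09 ± 1.87 (SE), with a 95% interval of 0.93 to 9.25. edgeR did not call it (FDR = 0.415, and 0.337 to 0.789 with each library left out) and DESeq2 called it higher at 5.17 (padj = 0.0363). The DESeq2 call was lost without O1, O3, A1, A2 or A3, with padj = 0.0907, 0.376, 0.0783, 0.200 and 0.114, and without O3 the value was 3.25.

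Cx3cl1 and Cxcl16 are the 2 chemokines made as membrane-anchored proteins with a mucin stalk, which can hold leukocytes or be shed. The Cx3cl1 promoter is shown beside the 3 above. The gene was read in every library at 21.1 CPM or more. Its window holds 1 TATAAA, left in lower case, and no match to the κB consensus. Cxcl1 and Ccl9, whose windows hold a κB match, were also read in every library, and the Cxcl3 window holds a TATAAA too. Whether these matches bear on the levels was not tested. The Cx3cl1 window lies on the plus strand in RefSeq's GRCm38.p6.
Cx3cl1, chr8:94771930-94772229: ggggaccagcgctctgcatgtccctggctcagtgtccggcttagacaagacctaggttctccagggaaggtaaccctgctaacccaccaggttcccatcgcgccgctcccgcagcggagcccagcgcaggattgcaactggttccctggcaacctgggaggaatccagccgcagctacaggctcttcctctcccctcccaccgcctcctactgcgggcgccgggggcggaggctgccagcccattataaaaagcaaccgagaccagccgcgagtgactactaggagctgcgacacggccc

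Cx3cl1, or fractalkine, was the chemokine gene with the most reads in 10 of the 14 libraries. From lowest to highest library it had the narrowest range of the 7 abundant genes, 12.9-fold, close to 13.5-fold for Cxcl16. The SD of its log2 CPM within groups, 1.26, was above that of Cxcl16 (0.88), Ccl7 (1.12) and Ccl9 (1.24). It was below that of Ccl2, Ccl5 and Cxcl1. Its level was 161, 89.8 and 29.5 CPM in OAC1, OAC2 and OAC3, and 46.4, 95.9 and 23.4 CPM in OA1, OA2 and OA3. The osteogenic libraries O1 to O3 had 271, 21.1 and 55.5 CPM, and the adipogenic ones 77.6, 79.6 and 41.9 CPM in A1, A2 and A3. OC3 had 40.2 CPM and AC3 45.1 CPM. All groups overlapped, and the pool was the lowest library in 3 of the 4 groups. The lowest p was in OA over O, at -1.07 ± 0.89 (SE; edgeR, FDR = 0.971), and the direction turned to 0.53 without O1. Cx3cl1 lies at percentile 88.7 of GC content, and its 4 highest libraries, O1, OAC1, OA2 and OAC2, were the 4 whose deviation followed GC content with a rho above 0.3. After the GC offset the level was 203 CPM in O1, 148 CPM in OAC1, 83.2 CPM in OAC2 and 74.5 CPM in OA2, and A2 at 79.2 CPM then stood above OA2.

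**Figure D4:**
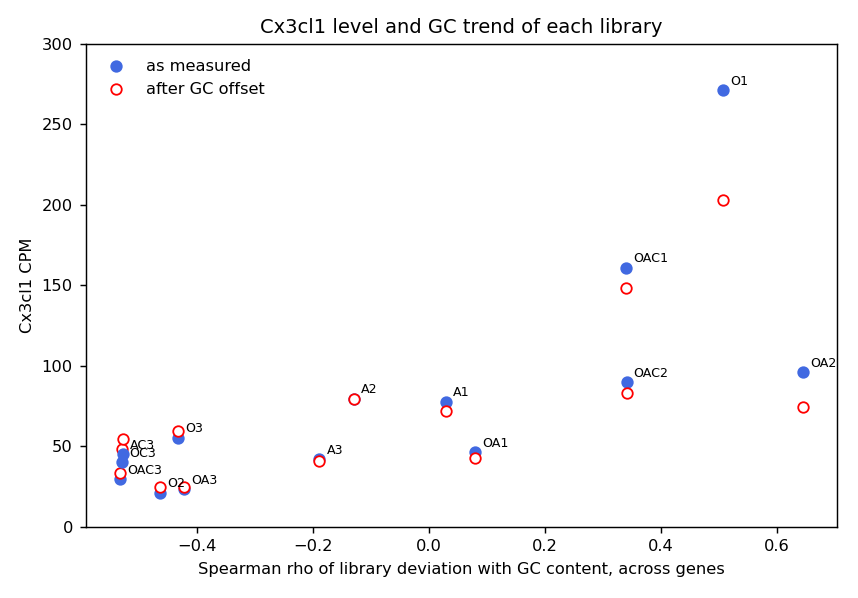
Cx3cl1 CPM (vertical axis) in each of the 14 libraries against the Spearman rho between the library's deviation and GC content across genes (horizontal axis), as measured (filled) and after a GC offset (open). The 4 highest libraries lie at the right, and O1 stays the highest after the offset at 203 CPM.

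Cxcl16, the ligand of CXCR6, was at 11.1 CPM in A1, 28.0 CPM in A2 and 9.30 CPM in A3. It was at 2.30, 6.27 and 4.08 CPM in OA1, OA2 and OA3 and at 6.88, 3.27 and 2.92 CPM in OAC1, OAC2 and OAC3. O1 at 11.4 CPM lay inside the adipogenic range, while O2 and O3 had 2.07 and 4.83 CPM. The adipogenic libraries thus lay above all OA and OAC libraries and overlapped with O through O1, and AC3, at 4.12 CPM, lay below them. The mean was 16.1 ± 10.3 CPM in A and 4.22 ± 1.99 CPM in OA (SD, n = 3 each). In OA over A the log2 fold change of Cxcl16 was -1.93 ± 0.70 (SE), with a 95% interval of -3.49 to -0.37 (edgeR, FDR = 0.795), and it was -1.27 without A2.

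Ccl25 and Ccl27a were low, at 5.68 CPM or less. Ccl25, a ligand of CCR9, ranged from 1.23 CPM in OA2 to 5.68 CPM in O2 under ENSMUSG00000023235 and from 0.0536 to 1.74 CPM under ENSMUSG00000055951, and both IDs were lowest in OA2 and highest in O2. Reads may be split between these 2 models. Ccl27a, a skin chemokine, ranged from 0.551 CPM in OA1 to 2.44 CPM in A3. The lowest p of these 3 came in OA over A for Ccl25 under the first ID (-0.76 ± 0.56, SE) and for Ccl27a (-0.46 ± 0.56, SE), and in OA over O for the second ID (-0.64 ± 0.94, SE), and none was called.

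The remaining genes stayed under the filter, and 10 of the 15 untested ones had at most 20 reads in all. Cxcl9, an interferon-induced ligand of CXCR3, had 75 of its 156 reads in A2, at 3.04 CPM, and 0.634 CPM or less elsewhere. A2 was also the library with the highest summed level of 21 interferon response genes, 2958 CPM against a median of 850 CPM, and the part of that response in the Cxcl9 level was not tested. Cxcl11, another CXCR3 ligand, had 18 reads. Ccl17, a ligand of CCR4 made by dendritic cells, had 121 reads with 1.66 CPM in OA2 and 1.06 CPM in OAC1, and Cxcl17 had 56 reads, 23 of them in O3. Ccl1 and Ccl20 had 3 and 4 reads.

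The calls of the 12 tested genes are given beside the share of all genes called. edgeR called 0 of the 12 tested chemokine genes at an FDR of 0.05 in every one of the 6 pairwise comparisons and in the test among O, A, OA and OAC. For all genes the share called was 0.0072% in O over A, in OA over A and in OAC over A, and 0% in the others. At an unadjusted p under 0.05, edgeR gave 3 of 12 in O over A (9.89% of all genes), 2 in OA over O (5.43%), 2 in OA over A (5.27%), 1 in OAC over OA (1.17%), 0 in OAC over O (6.02%) and 4 in OAC over A (3.58%). In the test among the 4 groups it gave 5 of 12 (5.97% of all genes), namely Ccl7, Cxcl14, Cxcl16, Cxcl1 and Ccl2, with FDR values of 0.681 to 0.831. DESeq2 called 1 of 12 in 3 of the tests, namely Cxcl14 in O over A (3.03% of all genes called), Ccl7 in OA over A (0.937%) and Ccl7 among the 4 groups (padj = 0.0214, 2.1%), and 0 in OA over O (0.303%), OAC over OA (0%), OAC over O (0.728%) and OAC over A (0.411%). The call among the 4 groups was lost without A1 and without A2.

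The chemokine genes whose groups did not overlap were all lower than in the adipogenic libraries. They were Ccl2 and Ccl7 in O over A, 2 of 12 against 15.6% of all genes in either direction and 8.28% lower. They were Ccl2, Ccl7, Cxcl1 and Cxcl16 in OA over A, 4 of 12 against 11% in either direction and 5.81% lower. In OAC over A they were Ccl2, Ccl7 and Cxcl16, 3 of 12 against 10.8% in either direction and 6.02% lower. None of the 12 was without overlap in OA over O (8.2% of all genes), OAC over OA (4.93%) or OAC over O (11.5%). After the GC offset, over the 11 genes with a GC value, Ccl2 stayed without overlap in O over A, 1 of 11 against 8.9% of all genes lower, and Ccl2, Ccl7 and Cxcl16 in OA over A and in OAC over A, 3 of 11 against 6.11% lower in each. The comparisons against A share its libraries, and as measured A2 was the highest library for Ccl2, Ccl7, Ccl9 and Cxcl16. The median log2 fold change of the 12 genes was 0.04 in O over A, -1.10 in OA over A and -0.82 in OAC over A, beside 0.03, -0.03 and -0.03 over all genes tested. It was -0.67 in OA over O, -0.47 in OAC over O and 0.23 in OAC over OA, beside -0.08, -0.06 and 0.00.

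**Figure D5:**
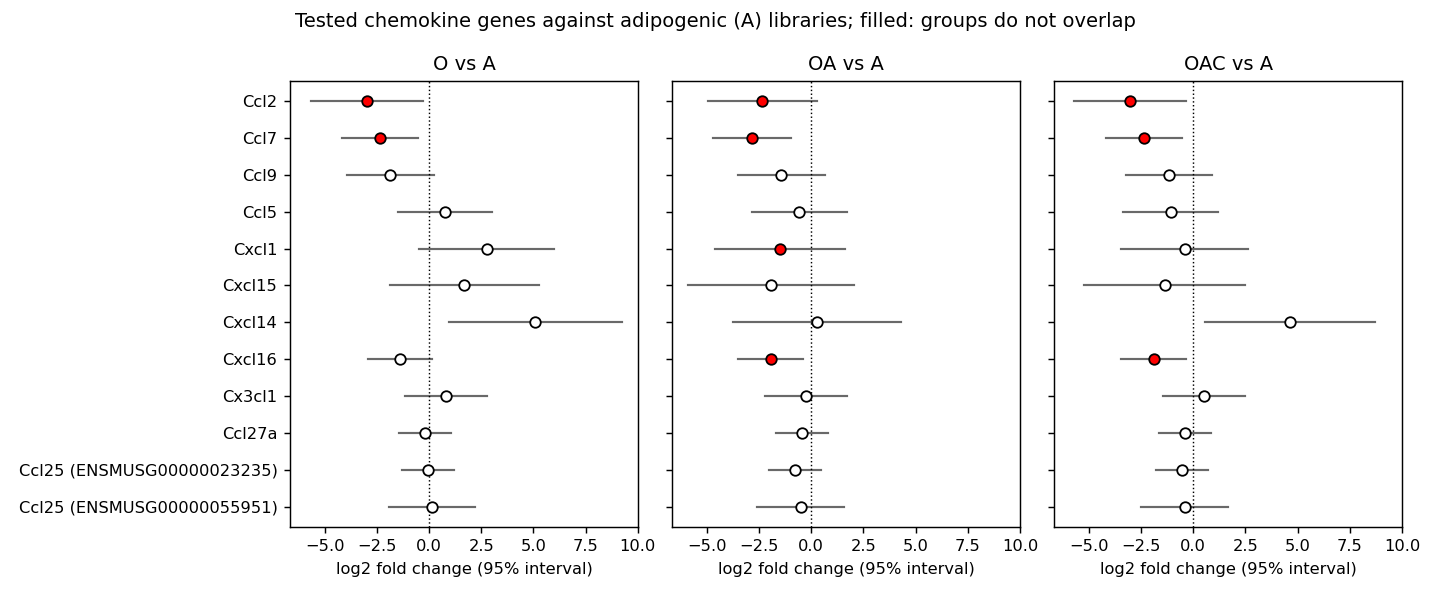
log2 fold changes (points) with 95% intervals (lines) of the 12 tested chemokine genes in O, OA and OAC over the shared adipogenic libraries, filled where the groups do not overlap. Ccl2 and Ccl7 lie left of 0 and filled in all 3 panels, Cxcl16 is filled in OA and OAC, and Cxcl14 lies far to the right in O and OAC with the widest interval.

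Receptors for these ligands were barely read. The 12 chemokine receptor genes in the table summed to 0.515 CPM in AC3 to 3.56 CPM in O1, and 1 of them, Cxcr6, the receptor of Cxcl16, passed the filter, at 2.35 CPM in O1 and 2.03 CPM in OAC1 but no read in A2, where Cxcl16 was highest. Cxcr2, which binds Cxcl1, had 1 read in all, and Cx3cr1, which binds Cx3cl1, had 9. Of the 4 atypical receptors, which bind chemokines without G-protein signalling, Cxcr7 was the 1 tested, with 10.9 CPM in O1 and 6.37 CPM in O3. None of these receptors was called.

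The inducing pathways were read well in all libraries and gave no edgeR call either. The 24 NF-κB pathway and target genes, of which 17 were tested, summed to 931 CPM in OAC3 to 1774 CPM in A3. The most abundant were Csf1, Rela, Nfkb2 and Nfkb1. Csf1 alone held 341 CPM in OC3 to 792 CPM in A3. Nfkb1, Relb, Nfkbia and Zc3h12a were each highest in O1, at 137, 70.1, 92.0 and 62.2 CPM. The other tested genes of the list were highest elsewhere, such as Rela in A1 (194 CPM), Nfkb2 in OA2 (191 CPM) and Tnfaip3 in A3 (51.4 CPM). The part of NF-κB in the Cxcl1 level was not tested. The sum of the list was 1562 CPM in O1, where Cxcl1 was highest, and 1033 CPM in O2, where Cxcl1 was lowest. It was higher than in O1 in A3, OAC1 (1680 CPM) and OA2 (1619 CPM), where Cxcl1 was at 14.4, 13.97 and 6.16 CPM. Csf1 weighs heavily in these sums, with 536 CPM in O1 and 792, 767 and 746 CPM in A3, OAC1 and OA2. The place of O1 below those libraries thus rests on Csf1. DESeq2 called 1 of the 17 lower in O over A (3.03% of all genes called in either direction), namely Tnfaip3, a feedback inhibitor of NF-κB (edgeR log2 fold change -1.44, DESeq2 padj = 0.00148), and called it in OA over A as well (edgeR -1.29, DESeq2 padj = 0.0140, beside 0.937% of all genes). The 13 inflammatory receptor genes summed to 677 CPM in O2 to 1357 CPM in AC3, and all were tested. Beside the same shares of all genes, DESeq2 called 2 of the 13 in O over A and 1 in OA over A. These were Ifngr1, an interferon gamma receptor chain, lower in O over A (edgeR -1.34, DESeq2 padj = 0.00146) and in OA over A (edgeR -1.25, DESeq2 padj = 0.00975), and Tnfrsf1b, lower in O over A (edgeR -1.29, DESeq2 padj = 0.0461). None of the 21 interferon response genes was called by edgeR or DESeq2 in any pairwise comparison, with 4 of them at an unadjusted p under 0.05 in O over A, beside 9.89% of all genes.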

How the data were processed

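Polyadenylated mRNA was captured on oligo(dT) beads and sequenced with strand information, per the labels' protocols. The deposited table holds raw whole-number read counts per gene for 14 libraries, with exon lengths. CASAVA 1.8.0, bedtools 2.11 and build mm9 are named in the submitters' processing notes. How reads were aligned and counted by strand is not given in the sources used here, so overlapping or antisense genes are uncertain.

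A gene was tested where 3 or more libraries reached 1 CPM (13896 of 23331). edgeR 4.0.16 (R 4.3.3) gave the main result by its quasi-likelihood test with TMM factors, 6 group means over all 14 libraries (8 residual degrees of freedom) and Benjamini-Hochberg FDR of 0.05 over all genes. SE is the absolute log2 fold change over the square root of F. DESeq2 1.42.0 was the second test, with padj its adjusted p. Both were tested on simulated counts of O over A, where a larger share of the DESeq2 calls than of the edgeR calls fell on genes simulated without change. edgeR in turn recovered fewer of the changed genes than DESeq2 at every simulated fold. Correlations used log2 CPM (prior count 2) and two-sided permutation tests with 100000 resamples, or all permutations where fewer. GC content came from GENCODE M21 transcripts (96.5% of tested genes), and promoters from RefSeq (16 of 26 symbols). Members and lists were chosen with earlier results of these data known. Members averaging at least 5 CPM are given by library, others by range, and each tested member in its comparison with the lowest p. Of the other lists, the 4 most abundant genes were the ones to name. Genes called by DESeq2, receptors, and markers or NF-κB genes set beside a chemokine result were named after their values were seen. So were Cxcl14 and Cxcl15 by library. Alternatives were other scaling, no filter, DESeq2, a replicate block, subsets of libraries and, added after the data were seen, GC offsets and DESeq2 with each library left out.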

Additional observations from a re-analysis of the deposited data

How the results depend on the processing

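The edgeR counts of called chemokine genes were 0 in all 7 tests under every setting run: median-ratio factors, library size alone, no filter, the compared groups alone, without OA2 and O1, GC offsets, and each library left out (0 to 0). The labels' numbers were not taken to pair the libraries, since not every same-number pair correlated above 0.1: 11 of 18 did (range -0.58 to 0.76), all 6 pairs of pools among them (0.29 to 0.76), against 7 of 36 other pairs, and in 24 of 36 checks a library correlated best with its own number. With the replicate block the count stayed 0, Ccl7 in OA over A was -3.12 and Ccl2 in OAC over A -3.48. DESeq2 called 1 gene each in O over A, OA over A and among the 4 groups. With 1 library left out, DESeq2 counts ranged from 0 to 2 in O over A, OA over O, OA over A and OAC over O, from 0 to 1 in OAC over A and from 0 to 3 among the 4 groups. Among the log2 fold changes, Cx3cl1 in OA over O ran from -1.80 to 0.53 with 1 library left out, positive without O1 (DESeq2 0.55), and Ccl25 (ENSMUSG00000055951) in OA over O from -1.48 to 0.19, positive without O2 (DESeq2 0.18); the cause was not tested. The other fold changes kept their direction. No value could be had for 3 genes with the compared groups alone and for 1 without OA2 and O1, where they missed the filter. Of the 21 pairs, 16 passed by Pearson's r as reported and with a prior count of 0.5, 12 without OA2 and O1, 2 within single clones, 0 within pools and 1 without the libraries farthest from the median; these subsets hold 12, 8, 6 and 12 libraries. Depth limits the 15 untested genes, and intervals of groups of 3 span several log2 units.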
